A study of Caenorhabditis elegans with 2 samples.

Results

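The regions described here are autosomal exonic candidates of LAG-1 binding: entries of a ranked list of chromatin immunoprecipitation and sequencing (ChIP-seq) enrichment whose summit, the base of highest enrichment, lies inside an exon of a protein-coding gene on chromosomes I to V. They were selected on reproducibility, with a global IDR of at most 0.1. The IDR, or irreproducible discovery rate, is an estimate of how likely an entry that ranks high in 2 lists does so by irreproducible noise. Summits in promoters, from 500 bp upstream to 100 bp downstream of a 5′ end, and summits within 500 bp of a tRNA, snoRNA or snRNA gene were left out. The rule kept 1106 of the 125458 candidates in the ranking. Of all candidates, 4395 met the IDR limit, which is 3.50%. Of the 31040 candidates that met every positional condition, called eligible candidates here, the 1106 are 3.56%. The 1106 lay in 1001 of the 12677 autosomal genes that held an eligible candidate (7.90%). Because IDR chose them, their IDR and signal are given as a description with no test.

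LAG-1 is the CSL-family DNA-binding protein of the Notch pathway in Caenorhabditis elegans. When a ligand of the DSL family binds the receptor LIN-12 or GLP-1, the receptor's intracellular domain is released, enters the nucleus and joins LAG-1 and the coactivator LAG-3 (also SEL-8) at target genes. GLP-1 keeps germline stem cells dividing in the adult, and LIN-12 sets fates of the anchor cell, the vulva and other somatic cells. CSL proteins recognise a short sequence with the core GTGGGAA or ATGGGAA, and the target genes that are best known carry it in promoters and introns rather than in coding exons. In ChIP-seq, sheared chromatin bound by the protein is pulled down with an antibody and sequenced, and enrichment over a control is scored along the genome.

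All samples belonged to 1 group of 2 biological replicates, so no conditions were compared. Strain RW12314 carries the allele st12314 on chromosome IV, a CRISPR insertion that adds TY1, EGFP and 3xFLAG to the endogenous lag-1 gene, and no other allele is named. Worms were arrested as starved L1 larvae after bleaching, grown to young adults of 62 hours and used whole, and sonicated chromatin was precipitated with an antibody to GFP. Whole animals mix germline and somatic nuclei, so enrichment in a few cells and weak enrichment in many cannot be told apart. A precipitation from worms without the tag was not analysed here, nor were the control's own reads. Read totals are not in the files used, which leaves the depth unknown. The signal is the strength that the authors' peak caller gave each entry relative to the control, and its unit is not named. Each entry was 236 bp long, on the ce11 assembly.

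The sequences below are examples of candidates with and without the LAG-1 core. The first set holds the 3 candidates past an IDR of 0.01 that carry the LAG-1 core (ATGGGAA or GTGGGAA, searched on both strands within 100 bp of the summit), followed by 3 others that were picked after their values were seen, in genes of a transcription factor, a regulator of Rab GTPases and a tRNA synthetase. Each is read 5′ to 3′ on the strand of the core, with the core in capitals, from NCBI assembly WBcel235, which is ce11.
col-163 core 1, chrV:20600874-20600903, minus strand: taacacagaatGTGGGAAagttcggggtga
col-163 core 2, chrV:20600982-20601011, plus strand: ttcttggtccaATGGGAAaaaacggacagc
bath-42, chrIII:8162569-8162598, minus strand: aatcgaagtatGTGGGAAgatgagctattc
F28A10.5, chrII:850416-850445, plus strand: tcttttgcagaATGGGAAgtgtaaagagct
hlh-30, chrIV:4017749-4017778, minus strand: gtcgaacggcgGTGGGAAtagtggcggtga
tbc-6, chrII:6850631-6850660, plus strand: tggatatgcttGTGGGAAaatggtttgtat
kars-1, chrII:7070507-7070536, minus strand: gaggatggggaATGGGAAtcgatcgtctct

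The second set shows summits with no core within 100 bp, which is the usual case here: the strong ones of dos-3, a Notch gene, and adh-1, a metabolic gene, and all 4 along icl-1, of which 2 lie below the median signal. These are read on the strand of the gene, and the capital marks the summit base.
dos-3, chrIII:836061-836090, minus strand: gactctcgaggaatcCtgcatcgccctcgt
adh-1, chrV:11888401-11888430, plus strand: attcttgtcaagatTgaatactctggaatt
icl-1 exon 2, chrV:727708-727737, minus strand: acaaactctggcaacTattgcacactgagc
icl-1 exon 3, chrV:726525-726554, minus strand: caagatgttcgcctaCaactgctctccatc
icl-1 exon 4, upstream summit, chrV:725645-725674, minus strand: cccacccaactactaAgaaggagtacacac
icl-1 exon 4, downstream summit, chrV:725185-725214, minus strand: ccaaattggaatgacCgctccattcatgag

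The signal of the exonic candidates ranged from 2.84 to 115.97, with a median of 43.6 and quartiles of 39.5 and 48.0. Most were of middling strength: 763 lay from 40 to under 60, and 36 reached 60 or more. The 29934 eligible candidates that missed the limit had a median of 19.8 and a highest value of 57.9, and 9 of them reached 50. The median IDR of the 1106 was 0.0668, and 369 (33.4%) were at 0.05 or below. At an IDR of 0.01, the limit that the authors' thresholded lists follow, 42 remained, 0.135% of eligible candidates. On the edge of the rule, the last candidates inside the limit lay in rsf-1 (signal 42.7, IDR 0.0999), cpar-1 (41.9, IDR 0.0998) and elpc-2 (39.7, IDR 0.0998). The next ones outside it lay in asp-1 (36.4, IDR 0.1001), pck-1 (36.0, IDR 0.1002) and bpl-1 (40.3, IDR 0.1002), so the signals inside and outside the limit overlap.

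Replicates differed in single candidates more than in level. For 965 candidates, interval and signal could be found in both replicates' own files, and their median signal was 21.6 in replicate 1 and 22.8 in replicate 2. Replicate 2 was the higher at 543 and replicate 1 at 422. The median ratio of the higher to the lower value was 1.24, 176 candidates differed by over 1.5 times, and 22 by over 2 times, with 2.70 the highest ratio. Spearman's rho between the signals of the compared lists was -0.386 over the 1106, which the rule chose on both ranks, and 0.199 over all 31040 eligible candidates. These values share libraries, depth and base composition and are a description across candidates.

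**Figure D1:**
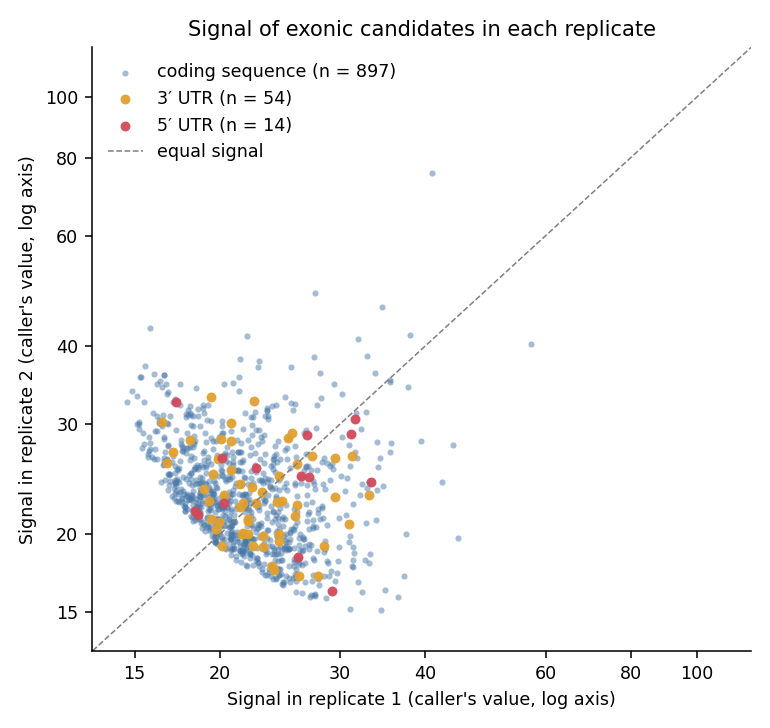
Signal of each of the 965 exonic candidates matched in both replicates' own files, replicate 1 on the horizontal and replicate 2 on the vertical log axis, coloured by the part of the transcript. The points start at a curved lower edge because the IDR limit removed pairs that were low in both, and coding and untranslated candidates fill the same range.

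Rankings made within single replicates put few exonic entries of any kind inside the limit. By the rankings made within each replicate alone, at the same IDR limit of 0.1, 21 of the 1106 were found for replicate 1 and 29 for replicate 2, and 43 (3.89%) for either. The rule applied to those rankings gave 25 and 44 candidates in all, out of 15778 and 14642 eligible entries. The limit was thus met far less often there than in the ranking that compares the replicates, where 3.56% of eligible candidates met it. The 7 found in both were in ZC247.1, Y8A9A.2, dos-3, C06B8.7, mdt-26, bath-42 and Y95D11A.5, the last named after its values were seen. In the replicates' own thresholded lists there was 1, an exon of nhr-80 in that of replicate 2. This gene encodes a nuclear hormone receptor that regulates fatty acid desaturation. It had 15.8 in replicate 1 against 42.8 in replicate 2, the widest gap among the matched candidates. A further 15 candidates had pooled signals under 10, all within 199 to 274 bp of a stronger candidate and all paired with replicate entries (signals from 15.7 to 36.0) that were also paired with another candidate. They include the exons of ins-37 (2.84), an insulin-like peptide gene, and vab-10 (4.27), and were named after their values were seen. In all, 30 of the 1106 shared a replicate entry with another of them. In the authors' ranking of pooled reads the rule gave 1427 candidates, and 770 of the 1106 (69.6%) were also inside the limit there, which is 53.96% of those 1427.

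The strongest candidates lay in genes with unrelated roles. All 20 with the highest signal were coding, but so were 93.4% of the exonic candidates and 90.8% of eligible ones. The count therefore does not set the strongest apart by part of the transcript. The highest was in exon 8 of ZC247.1, which RefSeq names a sperm flagellar membrane protein, with a pooled signal of 115.97 (40.9 in replicate 1, 75.6 in replicate 2). The next was in exon 5 of Y8A9A.2 (91.9, with 57.1 and 40.3). In adh-1, the alcohol dehydrogenase gene, the candidate chrV:11888297-11888532 in exon 1 had 81.3, with 27.6 in replicate 1 and 48.6 in replicate 2. The replicates ordered these 3 differently, with Y8A9A.2 the highest in replicate 1 and ZC247.1 in replicate 2.

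In dos-3, chrIII:835957-836192 in the last of 11 exons had 79.9, with 34.5 in replicate 1 and 46.1 in replicate 2. DOS-motif proteins are Notch co-ligands that act beside the DSL ligands. The other eligible candidate of dos-3, in exon 10, had 23 and an IDR of 0.229. Exon 24 of C06B8.7, a scavenger-receptor cysteine-rich domain gene, had 79.6, with the replicates close at 38 and 41.7. In col-163, a cuticle collagen gene, the candidate had 77.1, with 37.7 and 34.4, and is the one with both cores printed above.

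Regulators of transcription and chromatin appeared among the 20 as well. The exon of mdt-26, a Mediator subunit gene, had 74.0 (31.8 and 41.1 in replicates 1 and 2), and that of sin-3, the scaffold of a histone deacetylase corepressor, had 69.1 (29.4 and 34.8). In sea-2, a zinc finger gene that is an autosomal signal in sex determination, the strongest candidate had 66.1, and the replicates were nearly equal at 35.5 and 35.3. Neuronal genes were trp-4, a TRPN mechanosensory channel gene (72.6), and unc-79, an accessory subunit gene of the NALCN sodium leak channel (70.6). The remaining ones were C29A12.6 (75.5), dpf-3, a dipeptidyl peptidase gene (72.3), bath-42, a BTB and MATH adaptor gene (72.0), col-48 (69.8), F53A10.2 (68.2), T28F4.4 (67.5), lsm-7, an Sm-like RNA-binding subunit gene (67.2), nspg-11 (66.6) and F58H7.1 (66.2).

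The authors' conservative thresholded list, which compares the replicates, holds 39 of the 42 candidates past an IDR of 0.01. Beyond those above it includes the metabolic genes icl-1 (63.1), gdh-1, glutamate dehydrogenase (57.8), and nduc-2, a subunit of respiratory complex I (64.8). It also includes paa-1, the scaffold of protein phosphatase 2A (61.5), rps-14, a small ribosomal subunit gene (58.9), nhr-88, a nuclear hormone receptor gene (57.4), and the glutamate transporter gene glt-3 (55.3). The list leaves out ZC247.1 and Y8A9A.2, the 2 with the highest signal, and ZC178.2, whose product RefSeq describes as mucin-like. Among those it keeps, T28F4.1 had a pooled signal of 10.3 beside 31.8 and 26.4 in the replicates.

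Nearly all of the regions were coding. Of the 1106, 1033 (93.4%, 95% Wilson interval 91.8 to 94.7) had the summit in coding sequence, 16 in a 5′ UTR and 57 in a 3′ UTR. Among eligible candidates that missed the limit the coding share was 90.7%. The limit was met by 3.66% of coding candidates (3.45 to 3.89), 2.95% of those in 5′ UTRs (1.83 to 4.74) and 2.48% of those in 3′ UTRs (1.92 to 3.19). The intervals of coding and 3′ UTR candidates do not overlap, and that of the 5′ UTR covers both. Intervals cover counting error only, candidates of 1 gene are not independent, and no test was made.

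Signal hardly separated the parts. The median was 43.5 in coding sequence (quartiles 39.5 and 47.9), 46.6 in 5′ UTRs (41.3 and 54.9) and 44.7 in 3′ UTRs (39.9 and 47.7). The coding median minus that of all untranslated candidates (45.1) was -1.61, smaller in size than the width of either quartile range. Its sign was not stable: the difference was 0.605 at an IDR limit of 0.05, 7.66 at 0.01, and 3.07 and 6.93 in the rankings made within replicate 1 and replicate 2 alone. All but the first of these values rest on few untranslated candidates. At 0.01 there were 3, and the replicate rankings held 25 and 44 candidates in all, 88 and 93.2% of them coding. The sign was kept in the ranking of pooled reads (-1.09) and at a limit of 0.2 (-0.22). The highest untranslated signals were 61.3 in the 3′ UTRs of K08D12.4 and Y69H2.9, the latter named after its values were seen. The highest in a 5′ UTR was 58.5 in sulp-6, a sulfate-permease-like transporter gene, among 16 candidates. The highest in coding sequence was 115.97 among 1033, and maxima of groups so unequal in size are not comparable. In cgh-1, which encodes a germline RNA helicase of P granules, the 3′ UTR candidate had 57.4, with 25.5 in replicate 1 and 29.0 in replicate 2. Other untranslated candidates of known regulators were those of mnk-1, a kinase that acts on a translation initiation factor, with 54.4 and 38.3 in the 3′ UTR, and unc-62, a homeobox gene, with 46.0 in the 5′ UTR. Both also had 1 candidate in coding sequence, at 48.5 and 49.8.

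**Figure D2:**
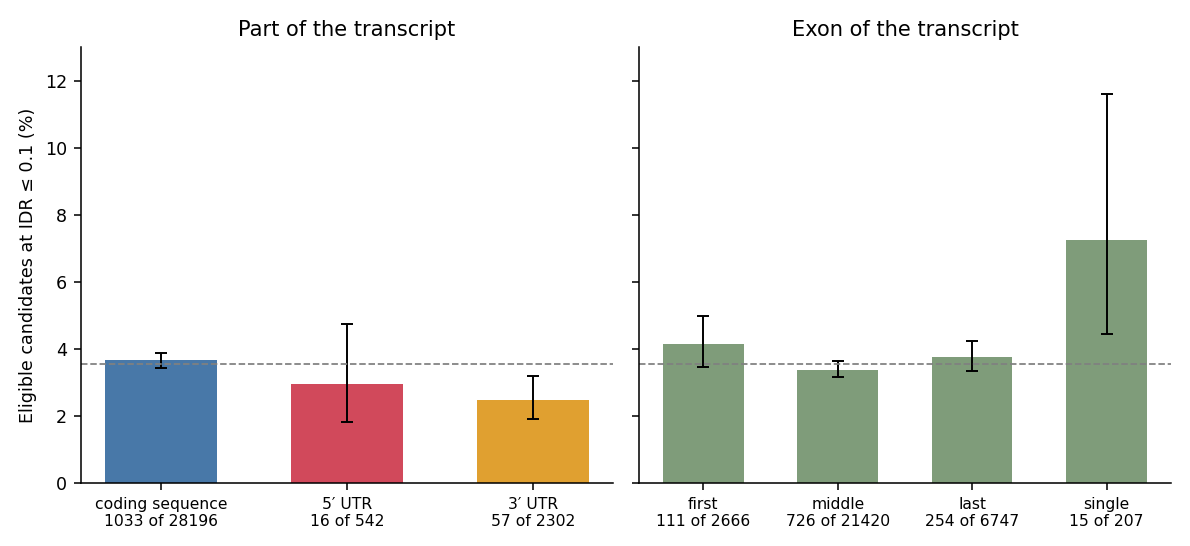
Share of eligible candidates that met the IDR limit, by part of the transcript (left) and by exon (right), with the counts under each bar, 95% Wilson intervals as error bars and the share of all eligible candidates, 3.56%, as the dashed line. Coding stands above 3′ UTR, and the bar of single-exon genes is the tallest and has the widest interval.

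The share inside the limit differed by exon position and was highest in single exons. The summit lay in a first exon of some transcript at 111 (10.04%, 8.40 to 11.9), in a middle exon at 726, in a last exon at 254 and in the only exon at 15. The first-exon share was 8.54% among eligible candidates that missed the limit. The limit was met by 4.16% in first exons (3.47 to 4.99), 3.39% in middle exons (3.16 to 3.64), 3.76% in last exons (3.34 to 4.25) and 7.25% in single exons (4.44 to 11.6). First and later exons together (middle and last, 3.48%, 3.27 to 3.70) have overlapping intervals, whereas those of single and middle exons do not overlap. Within coding sequence the share was 4.40% in last exons (3.84 to 5.04) and 3.40% in middle exons (3.16 to 3.65), again without overlap. Because promoters were removed, a first exon counts here only beyond 100 bp from a 5′ end. Median signals were 45.7 in first, 43.5 in middle, 43.4 in last and 37.8 in single exons. At an IDR of 0.01, 10 of the 42 were in first exons, which held 8.59% of all eligible candidates. Among the 10 were those of adh-1, dpf-3, col-48, sea-2, nduc-2, paa-1 and gdh-1. The sea-2 exon is the first in some transcripts only, and its summit lay 1783 bp from the nearest 5′ end. The single-exon genes included col-51 (37.8), col-138 (30.8), his-67, a histone H4 gene (35.6), msp-76, a major sperm protein gene (36.2), vha-3, a proton pump subunit gene (36.5), and mrpl-54, a mitochondrial ribosomal protein gene (50.9). All but his-67 in that sentence were named after their values were seen, and histone and sperm protein genes have near-identical copies among which reads can be split.

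The share inside the limit varied more with base composition than with part or exon. GC content, taken over the bases up to 100 bp either side of the summit, had a median of 44.3% in the 1106 and 40.3% in the eligible candidates that missed the limit. The limit was met by 1.02% of eligible candidates under 35% GC (58 of 5698), 2.40% from 35 to 40%, 3.58% from 40 to 45%, 5.71% from 45 to 50%, 8.45% from 50 to 55% and 13.0% above that (81 of 623). Candidates in 3′ UTRs that missed the limit had a median GC content of 33.8%, against 40.8% in coding sequence. Within a range of GC content, untranslated candidates met the limit at least as often as coding ones: 1.07% against 1.00% under 35% GC, 2.67% against 2.37% from 35 to 40%, 5.12% against 3.50% from 40 to 45%, and 6.15% against 5.70% from 45 to 50%, with overlapping intervals in each. Single-exon candidates that missed the limit also had a high GC content, 45.8% at the median. The part of GC content in the shares by part and exon was not tested.

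**Figure D3:**
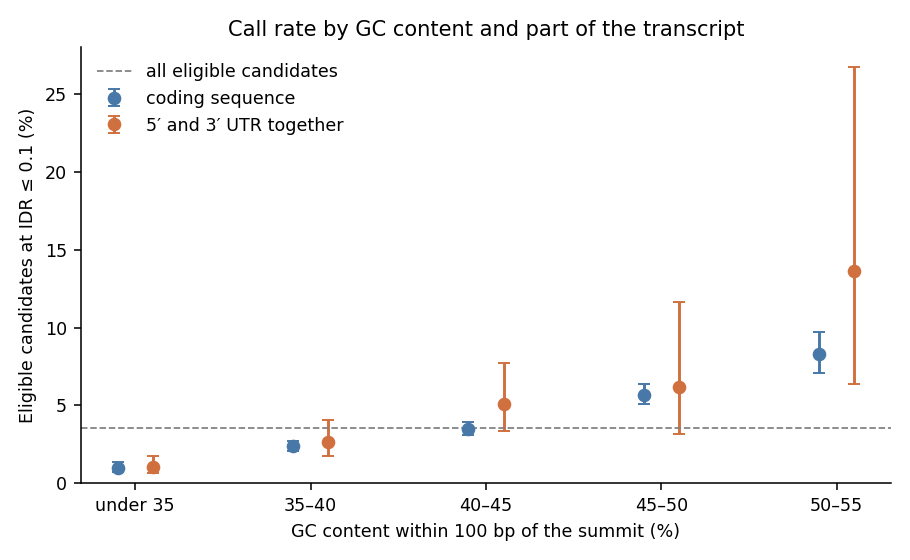
Share of eligible candidates that met the IDR limit, by GC content within 100 bp of the summit, in coding sequence and in untranslated regions, with 95% Wilson intervals and the share of all eligible candidates as the dashed line. Both parts rise with GC content, and in no range do coding candidates stand above untranslated ones.

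The exons themselves were longer than those of the other eligible candidates, with a median of 404 bp against 336 bp. The limit was met by 2.37% of eligible candidates in exons under 200 bp, 3.52% from 200 to 400 bp, 4.30% from 400 to 800 bp and 4.31% in longer ones. GC content rose alongside, from 38.3% to 42.3% at the median of candidates that missed the limit. Entries lay wholly in exon sequence in 45.1% of cases, against 35.8%. Distance to the nearest 5′ end differed little, with medians of 1135 and 1157 bp. Chromosomes differed little too, from 3.36% on V to 3.81% on III. With each chromosome cut into 3 equal lengths, the share was 3.05% in the middle (2.76 to 3.37), 3.86% on the left (3.50 to 4.27) and 3.93% on the right (3.55 to 4.34). The middle was also the poorest in GC, at 38.8% against 41.3% on either side in candidates that missed the limit. Repeats were scarce: 16 of the 1106 (1.45%) had over 50% of the bases around the summit soft-masked as repeats, against 3.24% of the candidates that missed the limit. Such masked candidates were poor in GC, at 31.3% at the median of those that missed the limit. They met it in 1.62% of cases (1.00 to 2.62), beside 1.02% of all eligible candidates under 35% GC. The part of GC content in this was not tested.

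LAG-1 cores were about as common in these exons as in other eligible ones. A core lay within 100 bp of the summit at 68 of the 1106 (6.15%, 4.88 to 7.72) and at 6.60% of the eligible candidates that missed the limit. Candidates with a core met the limit in 3.33% of cases (2.63 to 4.19) and those without in 3.58% (3.37 to 3.80). The median signal was 43.1 with a core and 43.6 without. Of the 20 strongest, 2 held a core, those of col-163 and bath-42, which are printed above with that of F28A10.5 (59.6), the other one past an IDR of 0.01. In col-163 the cores were centred 45 bp before and 62 bp after the summit, counted along the chromosome. The bath-42 candidate had 32.9 in replicate 1 and 38.5 in replicate 2, and F28A10.5 had 25.7 and 32.3. A pair of cores was also found at tbx-8, a T-box transcription factor gene (46.2). Of the 85 eligible candidates with 2 or more cores, 2 met the limit (2.35%, 0.648 to 8.18), beside 3.56% of all eligible candidates.

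Other transcription regulators with a core were hlh-30, the TFEB homologue (52.1), klf-2, a Krüppel-like factor gene (37.7), pzf-1, a zinc finger gene (52.3), nhr-212 (44.8) and spt-16, a subunit gene of the histone chaperone FACT (44.5). Metabolic genes with a core were pck-2, phosphoenolpyruvate carboxykinase (50.4), pyc-1, pyruvate carboxylase (44.1), and the fatty acid desaturase genes fat-2 (33.3) and fat-6 (34.1). Translation genes with a core were kars-1 (51.1) and mars-1 (41.3), tRNA synthetases, and eef-2, an elongation factor (10.5). Since 6.60% of the other eligible windows hold the same letters, a match is given as a description, and whether LAG-1 binds it was not tested.

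Several genes held repeated candidates along their exons. Of the 1001 genes, 91 had 2 or more, 14 had 3 or more, and ttn-1 had 5. These counts include the 30 candidates that shared a replicate entry with another, so they are not counts of separate enrichments. In srt-5, for example, the candidates at 31.2 and 3.30 shared their replicate entries (17.2 and 24.2). How many of the 91 genes rest on shared entries was not counted. Long genes gave many of the repeated candidates. In ttn-1, the giant titin-like muscle gene, 5 of 83 eligible candidates were inside the limit (6.02%). The spectraplakin gene vab-10 had 4 of 46 inside, with that at 42.5 in a 3′ UTR, and unc-89, the obscurin gene of the muscle M-line, 3 of 46. Some shorter genes had larger shares. Genes were named here for holding 2 or more candidates inside the limit, so where few were eligible a large share follows from that choice. In trp-4, 4 of 10 were inside, with signals of 54.6, 55.6, 72.6 and 47.7 from exon 5 to the last exon. Their replicate values ran from 20.3 to 28.2 in replicate 1 and from 22 to 38.4 in replicate 2. In gpdh-1, a glycerol-3-phosphate dehydrogenase gene, 3 of 3 were inside, but those at 27 and 15.1 shared their replicate entries (18.7 and 22.9) and are 1 enrichment in each replicate. The same holds for the candidates of sea-2 at 20.1 and 10.2, those of vab-10 at 40.8 and 4.27 (16.6 and 36.0) and those of unc-89 at 44.4 and 6.44 (21.6 and 18.8).

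The gene of the bifunctional glyoxylate cycle enzyme, icl-1, had 4 of 6 inside the limit. Along the gene their signals were 63.1 in exon 2, 39.6 in exon 3, and 31.8 and 50.01 in exon 4, while the others, both in exon 4, had 18.9 and 9.64. In replicate 1 the 4 had 30.2, 20.4, 19.8 and 24.4, and in replicate 2 they had 33.6, 21.8, 26.8 and 28.2. Both replicates thus had their highest value in exon 2, and replicate 2 exceeded replicate 1 at all 4. The replicate 1 entry of 19.8 was also paired with the candidate of 18.9 that missed the limit.

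In pck-2, 3 of 5 were inside, at 58.2 in the last exon, 50.4 in coding sequence and 22.7 in a 5′ UTR. The one in the 5′ UTR had 17.3 in replicate 1 and 32.5 in replicate 2, and over 50% of the bases around its summit were soft-masked as repeats. The paralogue of pck-2, pck-1, had 1 of 5 inside, at 55.5 in exon 2, and the next, at 36.0, was among the nearest outside. In acer-1, an acetyl-CoA hydrolase gene, the candidates of the first and the last exon were inside (56.9 and 49.97) and the 2 between them outside (26.3 and 17). In vit-6, the autosomal vitellogenin gene, adjacent candidates of exon 3 were inside, with 51.9 and 45.1. Their replicate values were 21.5 and 27.1 for the stronger and 22.1 and 26.8 for the other, while 5 others along the gene ranged from 8.85 to 30.2. Also with 3 inside were C06B8.7, with 79.6, 47.9 and 45 of 14 eligible candidates, mca-3, a calcium pump gene, with 50.9, 46.1 and 44.3 of 12, and mnk-1. The mca-3 candidate at 46.1 lay in a 3′ UTR.

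**Figure D4:**
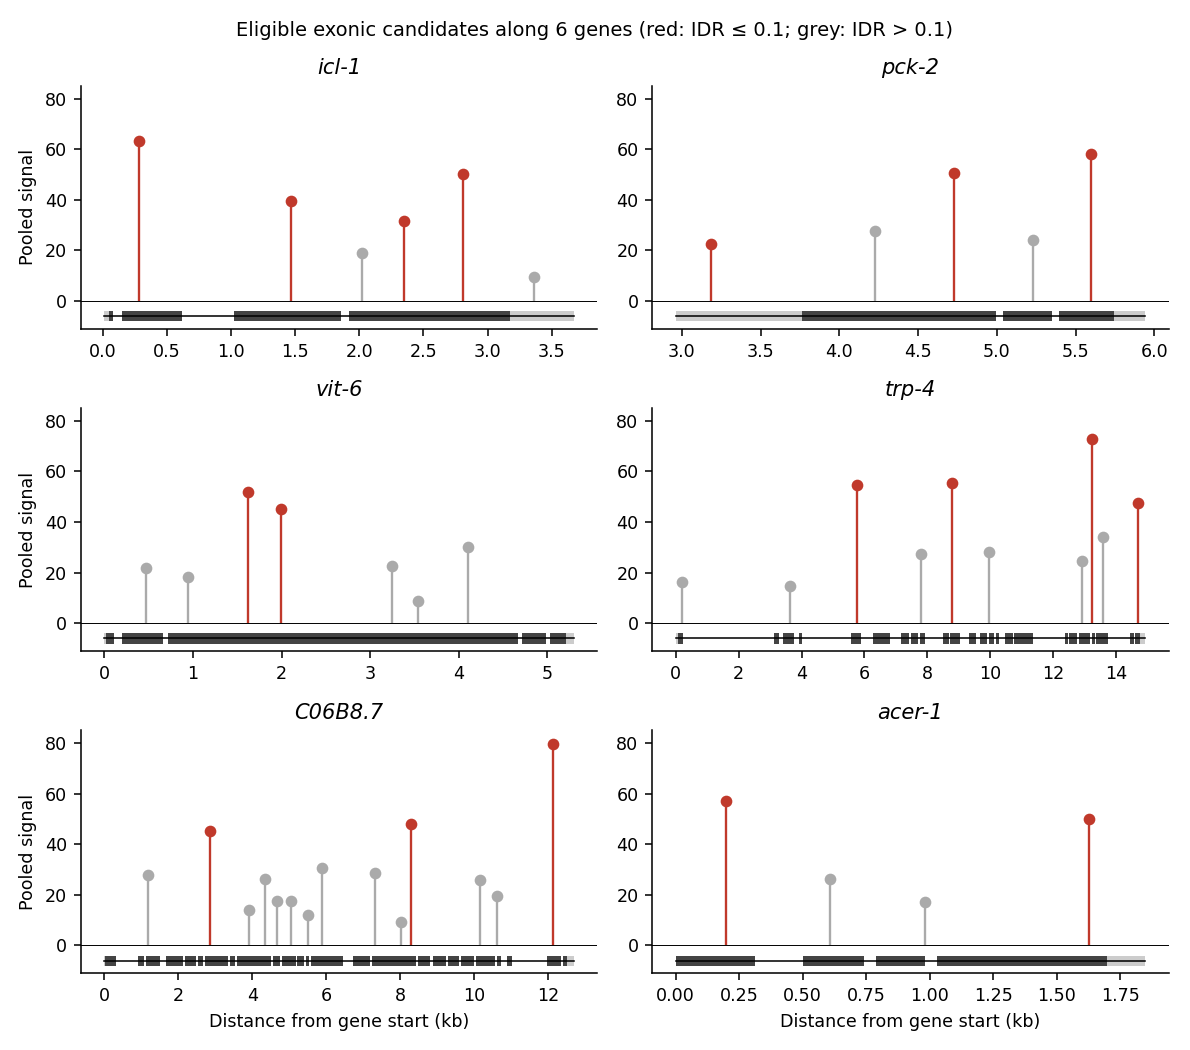
Pooled signal of every eligible candidate along 6 genes by distance from the gene start, with candidates inside the IDR limit in red and others in grey; below, exons of the transcript with the most exonic bases (dark coding, light untranslated). Candidates inside the limit are spread along the coding sequence, as in icl-1 and trp-4. In pck-2 the one at 22.7 lies in a 5′ UTR and below grey neighbours.

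Grouped by function, the candidates were spread thinly. Counts were made over 20 lists of genes, and a list's share of eligible candidates inside the limit is read beside 3.56% for all, without a test. The highest share was that of the yolk list (vit-6 and rme-2, the yolk receptor gene), at 3 of 10 (30%, 10.8 to 60.3). The candidate in rme-2 had 48.3, with 17.3 in replicate 1 and 29.3 in replicate 2. Histones followed with 3 of 18 (16.7%, 5.84 to 39.2), in htz-1, the H2A.Z variant (48.3), hil-5, a linker histone (48.0), and his-67. Eligible candidates of these lists were rich in GC, with medians of 48.3% for yolk and 49% for histones against 40.3% for all, and 5.71% of all eligible candidates from 45 to 50% GC met the limit. Cuticle collagens and cuticle shape genes had the most of any of these lists, 26 of 268 (9.70%, 6.71 to 13.8), led by col-163, col-48, dpy-2 (62.4) and col-103 (59.3). The signals of col-103 differed between replicates, at 15.3 and 35.7.

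Collagen genes code for glycine and proline repeats and are rich in GC, and the median GC content of their eligible candidates was 54.2%. Compared within ranges of GC content, they met the limit in 1 of 63 under 45% GC (other genes 2.51%), 0 of 28 from 45 to 50% (5.74%), 4 of 51 from 50 to 55% (7.84% against 8.47%), 10 of 56 from 55 to 60% (17.9% against 12.1%) and 11 of 70 above (15.7% against 12%). The intervals of collagens and other genes overlapped in every range. A count of 0 of 28 allows up to 12.1% by its interval.

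Ribosomal protein genes had 4 of 48 (8.33%), namely rps-14, rps-25 (57.7), rpl-10 (50.8) and rpl-7A (44.4). Eggshell genes had 6 of 74 (8.11%), with cpg-20 at 49, perm-5 at 47.4, and the chondroitin proteoglycan gene cpg-2 at 44.2. Splicing and RNA helicase genes had 10 of 151 (6.62%), led by lsm-7, sftb-2, a splicing factor subunit gene (61.9), and cgh-1. Germline RNA regulators had 9 of 141 (6.38%), among them gld-2, a cytoplasmic poly(A) polymerase gene (49.2 and 28.1), and the germ granule helicase genes glh-3 (47.9) and glh-1 (45.7). Mitochondrial energy genes had 5 of 70 (7.14%) and glycolysis genes 3 of 43 (6.98%), in pgk-1 (56.9), enol-1 (54.6) and aldo-1 (52.3). Of the lists in this paragraph, the Wilson intervals of the eggshell and splicing lists alone start above 3.56%, at 3.77 and 3.64%, with eligible candidates of 43.5 and 43.8% GC at the median.

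Lists whose interval covered the share of all eligible candidates were sperm proteins (5 of 77, 6.49%, 2.81 to 14.3), actin, tubulin and spectrin (14 of 255, 5.49%), translation factors (7 of 145, 4.83%), muscle (13 of 288, 4.51%), chromatin and transcription (20 of 444, 4.50%), chaperones (4 of 110, 3.64%) and the proteasome (3 of 89, 3.37%). Chromatin genes included chd-7, a chromodomain helicase gene with 50.9 and 46.3, and swsn-7, a SWI/SNF subunit gene (49.7). Neuronal genes had 6 of 238 (2.52%), with unc-103, a potassium channel gene (49.1), and unc-80, which works with unc-79 (48.9). Argonaute and small RNA genes had 3 of 191 (1.57%, 0.536 to 4.52), in nrde-2 (47.7), rde-11 (42.4) and csr-1 (37.9). Basement membrane genes had 2 of 129 (1.55%, 0.426 to 5.48), in emb-9, a type IV collagen gene (45.3), and mig-6 (39.8).

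The Notch list had 4 of 105 (3.81%, 1.49 to 9.39), at 3 of its 32 autosomal genes. After dos-3 came lst-6, a lateral signalling target gene, with 47.5 in exon 17 (23.5 and 24.5 in the replicates) and 31.7 in exon 12 (20.1 and 19.6). In sel-2, a BEACH-domain gene that modifies LIN-12 activity, 1 of 15 eligible candidates was inside, at 41.3 with an IDR of 0.0956. None of these 4 held a core, and their share inside the limit was near that of all eligible candidates.

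Further lists were drawn up after the values were seen and are given as counts. Enzymes of the glyoxylate cycle and gluconeogenesis had 9 of 33 (27.3%, 15.1 to 44.2), 7 of them in icl-1 and pck-2, and their eligible candidates had a median GC content of 47.3%. Homeobox genes of the ceh class had 7 of 72 (9.72%), with ceh-32 at 49.4 and 42.6, ceh-13, the labial homologue, at 45.8 and ceh-6 at 45.4. Nuclear hormone receptors had 15 of 457 (3.28%), C-type lectins 12 of 376 (3.19%) and F-box proteins 11 of 390 (2.82%). The chemoreceptor families sr and str, which make up one of the largest groups of genes in the worm, had 32 of 1602 (2.00%, 1.42 to 2.81), and the GC content of their eligible candidates was 36.8% at the median. By product names, dehydrogenases had 23 of 326 (7.06%, 4.75 to 10.4), peptidases 22 of 522 (4.21%) and protein kinases 20 of 775 (2.58%, 1.68 to 3.95). Of the 1001 genes, 51 (5.09%) encode products that RefSeq calls uncharacterized, against 6.51% of genes with an eligible candidate.

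**Figure D5:**
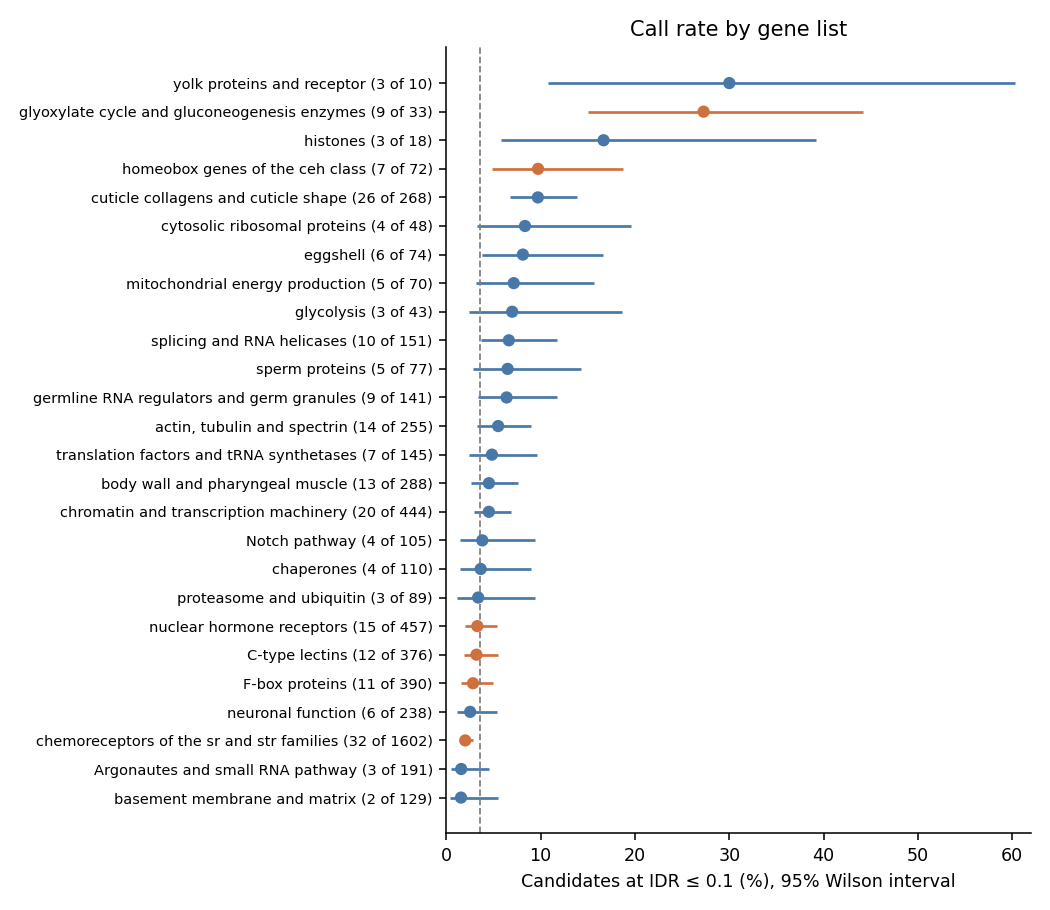
Share of eligible candidates inside the IDR limit for each list of genes, with 95% Wilson intervals, counts in the labels and the share of all eligible candidates, 3.56%, as the dashed line; blue lists were drawn up with the rules of the work and orange ones after the values were seen. Of the blue lists, yolk, histone and collagen lie above the line with their whole interval, as do, narrowly, eggshell and splicing. Of the orange lists, glyoxylate cycle and ceh lie above it and chemoreceptors below it. The orange lists were chosen with their values known, so where they lie is not independent of that choice. The intervals treat candidates of the same gene as independent, which they are not.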

How the data were processed

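ChIP-seq of EGFP-tagged LAG-1 was deposited as peak lists of 2 biological replicates on ce11. The deposited signal values are the strength the authors' peak caller gave each entry against a control, per the notes filed with each replicate. The −log10 column of each ranking was deposited as the global IDR that the authors' comparison of lists gave an entry. Neither aligner nor peak caller is given in the sources used here. Labelled replicate values were printed only where an entry's interval and signal matched that replicate's own ranked list exactly, and 0 matched the other replicate's.

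Summits were placed on the gene models of Ensembl release 115. A summit counted as coding if any transcript codes there, otherwise as 5′ and then 3′ UTR, and as first exon if it is one in any transcript. Bases came from the soft-masked NCBI assembly WBcel235, with product names from RefSeq. Chromosome names matched, and every summit lay inside its chromosome. Shares have Wilson intervals at 95%. No test was made, because there is 1 group and the rule used the ranking itself. Positions, sites and intervals were tested on simulated data: 18000 of 18000 summits and 500 of 500 planted sites came out right. Scripts ran under Python 3.11.15 with pandas 2.3.3, NumPy 2.4.6 and SciPy 1.17.1, and figures came from matplotlib 3.10.9.

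The candidates, gene lists and rules were chosen with earlier results of these data known. The rule named the genes of the 20 highest signals, of the conservative list, of a replicate's own thresholded list, with a LAG-1 core, with 2 or more candidates, with up to 4 per list, and 3 on each side of the limit. Of the 91 genes with 2 or more and the 68 candidates with a core, the text names a part. Alternatives changed the IDR limit, the ranking, the promoter and small RNA distances, the transcripts, the core and the repeat rule, and left out each replicate.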

Additional observations from a re-analysis of the deposited data

Results flagged for a closer look

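An IDR of 0.01 was passed by 3 exonic candidates that the conservative list leaves out, and they are given here because their signal lies in data that list does not report. They are in ZC247.1 (signal 115.97), Y8A9A.2 (91.9) and ZC178.2 (48.1). The first 2 hold the highest signals of all eligible exonic candidates. What left them out is given in no source used here and was not tested.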

How the results depend on the processing

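Of 91 alternative values, 53 stayed within a limit set for each kind of value and 38 moved. For counts the limit was a fixed ratio of 1.5, not a spread in the data, so 1427 candidates against 1106 counted as the same. Leaving out a replicate, by using the ranking made within the other alone, gave 25 to 44 candidates, 88 to 93.2% coding, 9.09 to 16% in first exons, 6.82 to 8% with a core, a median GC content of 46.3 to 47.5%, 2.27 to 4% in repeats and 5 to 10 listed genes (128 in the main set). The coding minus untranslated median signal was then 3.07 to 6.93, opposite in sign to -1.61, and the share of the 1106 in an own ranking was 1.90 to 2.62%. At an IDR of 0.05 there were 369 candidates, 90.8% coding, 12.7% in first exons, a signal difference of 0.605, 45.3% GC, 47 listed genes and 5.42% in an own ranking. At 0.01 there were 42, with 23.8% in first exons, a difference of 7.66, 46.8% GC, 0% in repeats and 7 listed genes. At 0.2 there were 3629, with a difference of -0.22 and 43.3% GC. With the longest transcript only, first exons held 7.69% and the difference was -0.69. Requiring a first exon in every transcript gave 7.14%, and counting a summit as untranslated if it is so in any transcript gave 90.6% coding. Cores were at 3.25% within 50 bp (3.20% of other eligible candidates), at 13.7% as TGGGAA (12.8%) and at 2.35% as GTGGGAA (2.22%). Any masked base was found in 61.5%. The sign of the signal difference thus depends on the IDR limit and the ranking, with 3 untranslated candidates left at 0.01, and the cause was not tested. No paired analysis was possible because there is 1 group. Depth is unknown and limits every value, and signals carry no error estimate.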
